A study of Mus musculus with 2 samples.

Results

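Mitochondrial ribosomal proteins were read by 132 of the 45281 probes of an Illumina bead array, chosen as every probe whose annotated symbol was Mrpl or Mrps followed by a number and at most 1 letter. These probes stood for 76 of 19057 named genes, 48 with an Mrpl symbol (large subunit) and 28 with an Mrps symbol (small subunit). Osteoclasts, the multinucleated cells that resorb bone, were compared with the bone marrow macrophages from which they form. Both were grown from whole marrow of the tibia and femur of C57BL/6J mice aged 8 to 12 weeks, kept for 4 days in M-CSF, the growth factor of macrophages, at 25 ng/ml. The osteoclasts had 3 more days with soluble RANKL, the cytokine that induces them, at 30 ng/ml beside the same dose of M-CSF. The macrophages had M-CSF and no RANKL, and the labels do not say on which day they were collected. Each sample stood for 3 mice and was read on 1 array, so no difference below has a replicate check and none was tested. The arrays came from different chips, so chip and cell type cannot be told apart.

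Mitochondria carry their own ribosome, which makes the few respiratory chain subunits that are encoded in mitochondrial DNA. Its RNAs are transcribed in the organelle, while all of its proteins are encoded in the nucleus, made in the cytosol and imported. Some of these proteins are peculiar to mitochondria, and others have a bacterial counterpart. Osteoclasts are known for abundant mitochondria.

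The promoters of these genes are shown first, because some short motifs recur in them. Whether the motifs bear on the differences between the samples was not tested. RefSeq windows from 250 bases before to 50 bases after the start (build GRCm38.p6) were found for 67 of the 76 genes, 73 windows in all. Each window was searched on both strands for 5 motifs: CCGGAAG, a core bound by ETS factors such as GABP; ATGGCGGC, the core of the YY1 site; GCATGCGC, within the site of the nuclear respiratory factor NRF1; AAGGTCA, the half-site of estrogen-related receptors (ERR); and CACGTG, the E-box bound by Myc and others. The ETS motif was in 35.6% of the members' windows, against 15.1% of 13239 windows of detected genes and 8.86% of all 32851 windows. The YY1 motif was in 16.4% of the members' windows, against 4.00% of those of detected genes and 2.24% of all. The NRF1 motif was in 8 of the 73 windows, against 4.46% and 2.71% of the same sets. The ERR motif was in 5.48%, against 3.33% and 4.72%, and the E-box in 9.59%, against 9.31% and 7.15%. A gene can have several windows, and the 7 windows with an E-box belong to 5 of the 67 members. Counted by gene, that share is lower than the 1149 of 10476 detected genes. The median G and C content was 58.7% in the members' windows and 59.3% in those of detected genes. A match is a run of letters and not a measured binding site.

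The following windows are given for these reasons. Mrps6 and Mrpl12 had the first and the third largest difference of all members. For Mrps28, which ranked between them, no window was found. Mrps18b, Mrps22 and Mrpl53 were picked as members at least 2-fold higher in osteoclasts that carry the recurrent motifs. Of the others at least 2-fold higher, Mrpl18, Mrpl34 and Mrpl51 carry the ETS motif and Mrps5 the YY1 motif. Mrps25, Mrpl42, Mrpl47 and Mrps10 carry none of the motifs searched, and Mrps35 and Mrpl38 have no window. The window of Mrpl46 holds the starts of a large and a small subunit gene. Capitals mark the motifs, and each window reads 5′ to 3′ on the gene's strand.
Mrps6 (chr16:92058086-92058385, plus strand): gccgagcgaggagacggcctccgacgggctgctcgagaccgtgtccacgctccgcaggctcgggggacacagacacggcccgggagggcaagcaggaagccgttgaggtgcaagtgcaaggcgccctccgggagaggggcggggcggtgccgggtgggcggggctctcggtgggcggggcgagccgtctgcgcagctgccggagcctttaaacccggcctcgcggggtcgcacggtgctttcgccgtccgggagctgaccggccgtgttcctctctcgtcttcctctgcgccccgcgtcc
Mrpl12 (chr11:120484387-120484686, plus strand): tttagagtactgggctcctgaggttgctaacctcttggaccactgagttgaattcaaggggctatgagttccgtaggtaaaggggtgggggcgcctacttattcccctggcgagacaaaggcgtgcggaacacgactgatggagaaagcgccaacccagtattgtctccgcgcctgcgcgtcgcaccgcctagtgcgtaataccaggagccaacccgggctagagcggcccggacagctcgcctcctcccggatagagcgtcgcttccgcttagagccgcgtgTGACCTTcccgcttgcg
Mrps18b (chr17:35916391-35916690, minus strand): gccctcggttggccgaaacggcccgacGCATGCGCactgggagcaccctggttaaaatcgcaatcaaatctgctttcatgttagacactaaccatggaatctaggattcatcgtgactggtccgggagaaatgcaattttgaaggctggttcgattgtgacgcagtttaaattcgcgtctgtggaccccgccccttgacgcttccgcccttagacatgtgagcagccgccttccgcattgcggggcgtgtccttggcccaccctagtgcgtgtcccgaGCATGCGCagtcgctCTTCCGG
Mrps22 (chr9:98601630-98601929, minus strand): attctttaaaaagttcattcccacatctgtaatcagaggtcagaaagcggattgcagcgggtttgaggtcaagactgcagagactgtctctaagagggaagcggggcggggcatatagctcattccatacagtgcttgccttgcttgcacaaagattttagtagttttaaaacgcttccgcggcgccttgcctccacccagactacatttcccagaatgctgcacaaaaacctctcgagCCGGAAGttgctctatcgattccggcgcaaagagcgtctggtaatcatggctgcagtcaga
Mrpl53 (chr6:83108858-83109157, plus strand): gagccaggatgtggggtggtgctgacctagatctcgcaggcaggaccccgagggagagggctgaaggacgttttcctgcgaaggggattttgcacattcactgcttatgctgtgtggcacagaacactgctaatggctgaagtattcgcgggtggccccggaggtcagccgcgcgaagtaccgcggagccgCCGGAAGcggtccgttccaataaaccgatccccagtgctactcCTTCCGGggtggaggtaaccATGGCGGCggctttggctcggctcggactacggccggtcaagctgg
Mrpl46 (chr7:78783040-78783339, minus strand): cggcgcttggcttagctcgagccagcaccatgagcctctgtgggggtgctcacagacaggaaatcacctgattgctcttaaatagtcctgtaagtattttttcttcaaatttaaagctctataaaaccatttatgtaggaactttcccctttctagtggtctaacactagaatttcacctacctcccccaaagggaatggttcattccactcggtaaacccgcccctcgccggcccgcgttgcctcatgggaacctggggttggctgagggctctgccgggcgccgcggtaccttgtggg

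With the first transcribed base counted as 1, the capitals in Mrpl12 are an ERR motif at bases 34 to 40. In Mrps18b they are NRF1 motifs at -223 to -216 and at 29 to 36 and an ETS motif at 44 to 50. The ETS motif of Mrps22 is at -11 to -5. Mrpl53 has ETS motifs at -59 to -53 and -16 to -10 and a YY1 motif at 5 to 12. None of the 5 motifs (0) was found in the windows of Mrps6 and Mrpl46. On the scale described next, the median difference was 0.47 for 26 detected members with an ETS motif and 0.56 for 39 without, and 0.79 for 12 with a YY1 motif and 0.50 for 53 without. It was 0.52 for 7 with an NRF1 motif and 0.50 for 58 without, 0.39 for 4 with an ERR motif and 0.52 for 61 without, and 0.38 for 5 with an E-box and 0.51 for 60 without. With any of the ETS, YY1 and NRF1 motifs it was 0.50 over 35 members, and with none of them 0.53 over 30.

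Messenger RNA of the mitochondrial ribosome was higher in the osteoclast sample across nearly the whole family. Of the 76 genes, 73 were detected on both arrays, meaning that the intensity of the brightest probe exceeded a limit set by the spread of the dimmest probes (7.24 on the osteoclast array and 4.88 on the macrophage array). Raw intensities were higher in osteoclasts for 72 of these 73, with a median ratio of 2.60 and a range of 0.705 to 13.1. The osteoclast array as a whole was brighter, with a median ratio of 1.71 over 10500 genes detected on both arrays, so differences were taken after background correction and quantile normalization. They are osteoclast minus macrophage on the log2(intensity + 16) scale, which understates changes of dim genes.

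On this scale the members had a median difference of 0.52 (1.44-fold), with quartiles of 0.34 and 0.96, against -0.05 for 13008 genes detected on at least 1 array. Differences were above 0 for 66 of 73 members, against 47.4% of all detected genes. Those 66 were above 0 under each of 7 ways of scaling the arrays, which is a weak check. Another offset or no background correction keeps the order of the probes on each array. After quantile normalization the sign at a detected probe then cannot change. Median scaling and no normalization raised the median of all genes to 0.29 and 0.60, so most differences moved up there. At least 2-fold higher were 16 members (21.9%), against 11.5% of all detected genes; without background correction the shares were 26.0% of members and 21.6% of all genes. No member (0) was 2-fold lower, against 8.2% of all genes. At a smaller fold of 1.5, 34 members (46.6%) were higher, against 20.9% of all genes, and 0 were lower, against 20.4%. The plot of the intensities shows the shift gene by gene.

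**Figure D1:**
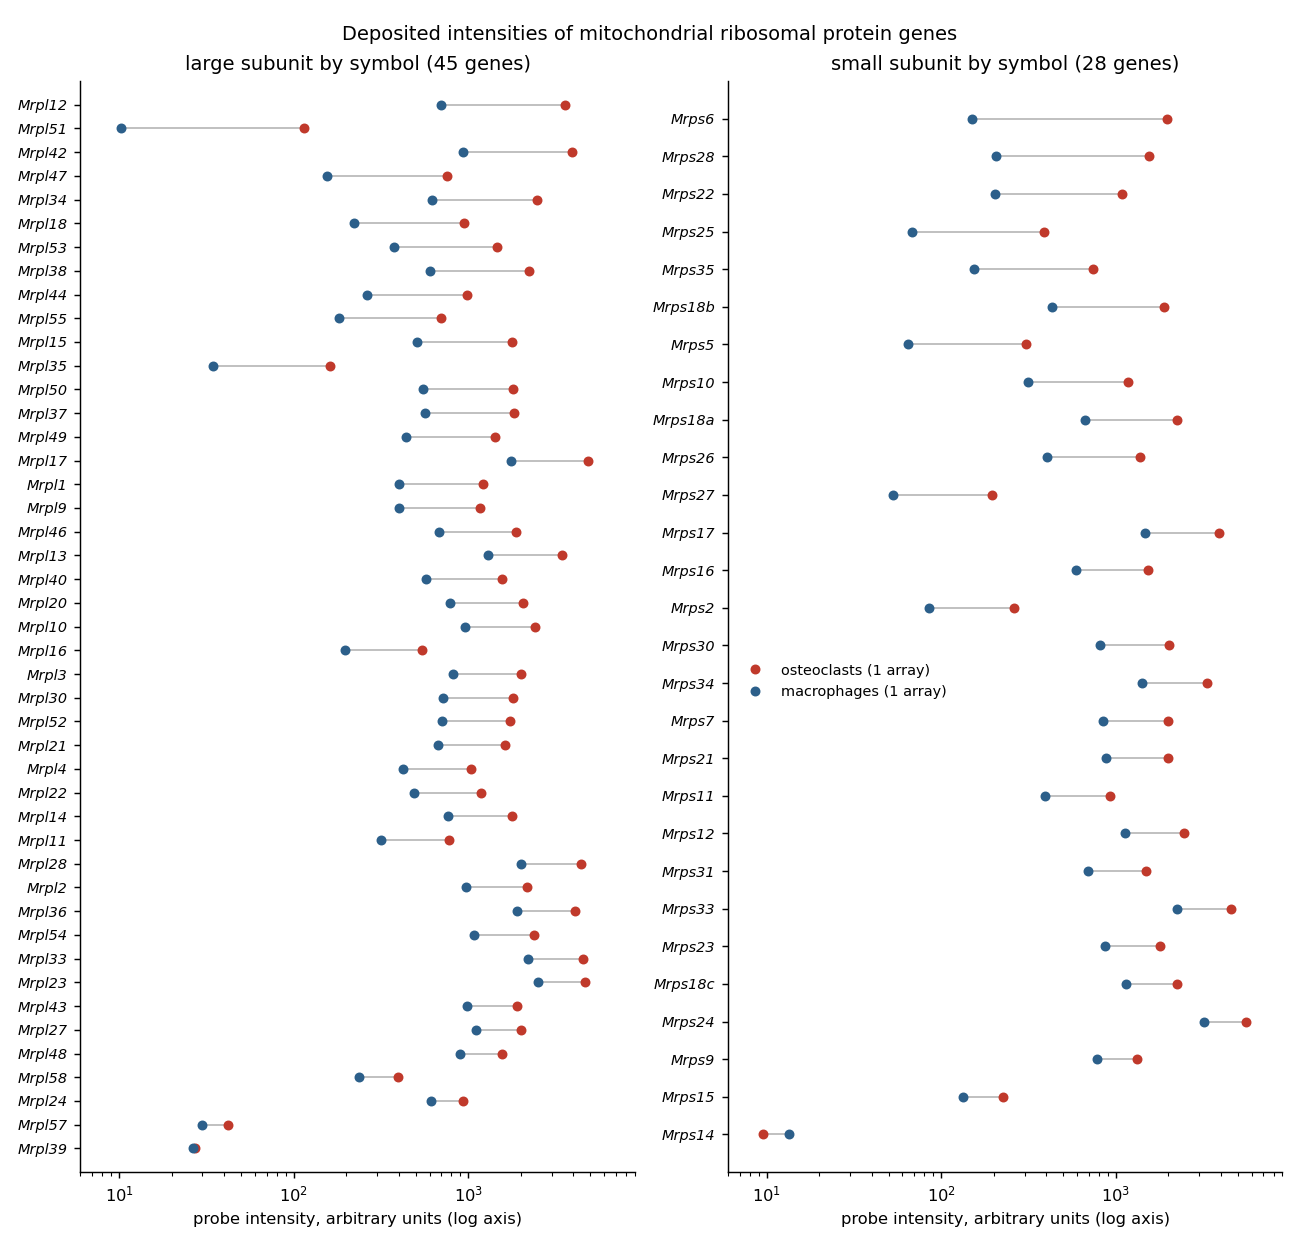
Deposited probe intensity (x axis, log scale, arbitrary units) on the osteoclast array (red) and the macrophage array (blue) for the 73 detected members, 1 array per cell type and no error bars, ordered by the normalized difference within the large (left) and small (right) subunit. In all but Mrps14 the osteoclast point lies to the right, with the widest gap at Mrps6 (1963 against 150.1).

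The size of the shift depended on the scaling. Without normalization between arrays the members' median was 1.35 and that of all genes 0.60, and 60 members were at least 2-fold higher, against 29.5% of all genes. Median scaling gave 1.05 and 0.29, with 38 members at least 2-fold higher, against 19.2% of all genes. The number of members at least 2-fold higher was 19 with cyclic loess, against 12.2% of all genes, 13 with an offset of 50, against 7.91%, and 16 in the authors' processed table, against 11.7%. Without background correction it was 19 (26.0%), against 21.6% of all genes, so there the members' share lay near that of all genes, while their median was 0.53 and that of all genes -0.07. In the authors' table the members' median was 0.56 and that of all genes 0.01. Over the 7 settings the members' median lay between 0.52 and 0.76 log2 units above that of all genes, and 65 members lay above the all-gene median in every one of them.

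**Figure D2:**
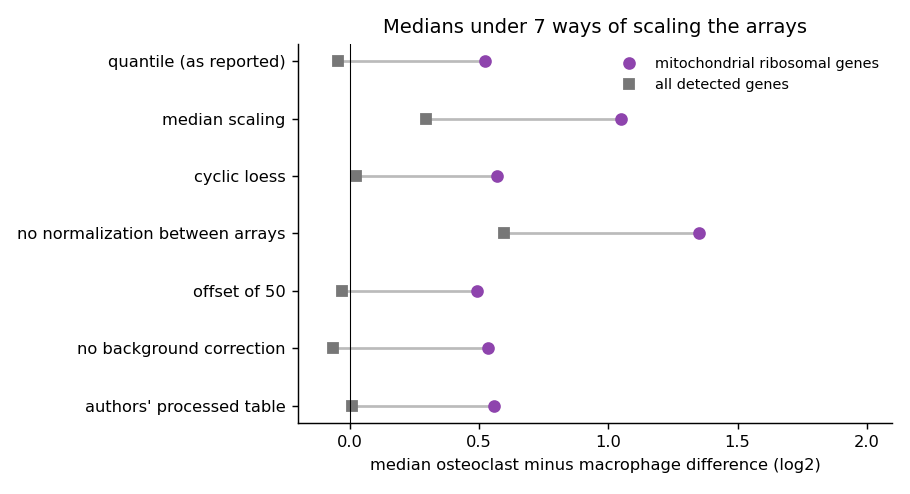
Median osteoclast minus macrophage difference (x axis, log2 units) of the 73 detected mitochondrial ribosomal genes (purple circles) and of all 13008 detected genes (grey squares) under 7 scalings (rows); 1 array per cell type, no error bars. Both medians move with the scaling, and the purple circle lies right of the grey square in each row.

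The large and the small subunit had nearly the same median. The 45 detected large subunit genes had a median of 0.52 and the 28 small subunit genes one of 0.53, so large minus small was -0.01, and between -0.04 and 0.05 under every alternative. At least 2-fold higher were 8 large subunit genes (17.8%) and 8 small subunit genes (28.6%), against 11.5% of all detected genes. Quartiles were 0.38 and 0.93 for the large subunit, and 0.30 and 1.04 for the small one, so the small subunit genes were spread more widely. Symbols do not always give the true place: the products of Mrps18a and Mrps30 sit in the large subunit, and with both moved there the medians were 0.52 and 0.50. Members peculiar to mitochondria had a median of 0.68 over 28 genes, and those with a bacterial counterpart 0.50 over 45 genes. This split depends on how related genes are assigned. Mrps18b (1.27) was counted as peculiar to mitochondria, and Mrps18a (0.94) and Mrps18c (0.18) as having a bacterial counterpart, though all 3 are related to bacterial protein S18. Members are not replicates of a condition, so these gaps were not tested.

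**Figure D3:**
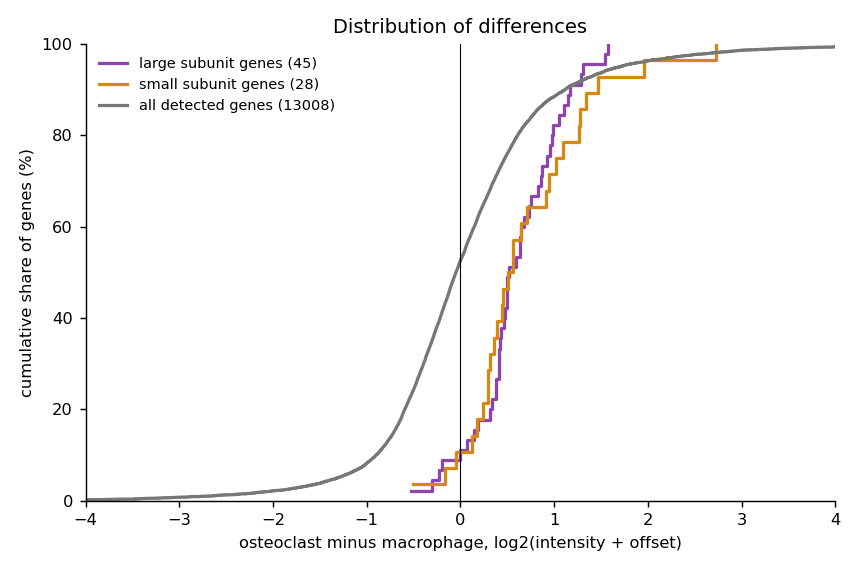
Cumulative share of genes (y axis, %) by osteoclast minus macrophage difference (x axis, log2(intensity + 16)) for 45 large subunit genes (purple), 28 small subunit genes (orange) and all 13008 detected genes (grey; values beyond 4 in either direction are not drawn). The purple and orange steps run together and right of the grey line through their middle, with medians of 0.52, 0.53 and -0.05.

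Mrps6, a small subunit protein with a bacterial counterpart, had the largest difference. Its probe read 1963 in osteoclasts, against 150.1 in macrophages, a difference of 2.72 (6.61-fold higher) and of 2.69 in the authors' table. Mrps6 is read by 1 probe only. In RefSeq its gene overlaps Slc5a3, the inositol transporter gene, whose 1 probe was detected on neither array (-12.6 in osteoclasts and -1.74 in macrophages). Mrps28, a small subunit gene mutated in a human mitochondrial disease, read 1548 in osteoclasts and 206.5 in macrophages and was 3.89-fold higher (1.96), also on 1 probe. Read by its brightest probe, no other member was beyond 3-fold on the normalized scale.

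Among the other small subunit genes at least 2-fold higher, Mrps22, also mutated in human disease, read 1079 in osteoclasts and 201.9 in macrophages (1.47, or 2.76-fold). Its other probe was detected on neither array. Mrps25 read 387.4 in osteoclasts and 67.6 in macrophages (1.34), and its other probes detected on both arrays gave 1.58 and 1.83. All of these probes put Mrps25 above 2-fold. Mrps35 read 743.1 in osteoclasts and 154.5 in macrophages (1.28). Mrps5, the counterpart of a bacterial protein that affects the accuracy of decoding, read 306.8 in osteoclasts and 64.2 in macrophages (1.09). Its other probe, detected on the macrophage array only, gave -0.45 (6.08 in osteoclasts and 9.98 in macrophages). Mrps10, a protein of the head of the subunit, read 1176 in osteoclasts and 313.2 in macrophages (1.02), with 0.76 and 1.35 at its other detected probes.

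The 3 genes related to bacterial protein S18 differed from one another. Mrps18b read 1896 in osteoclasts and 432.9 in macrophages, a difference of 1.27, and its other probes gave 1.27 and 1.34. Mrps18a read 2249 in osteoclasts and 665.7 in macrophages (0.94). Mrps18c, the one that takes the place of S18 in the small subunit, read 2226 in osteoclasts and 1140 in macrophages (0.18). The order was that of Mrps18b, Mrps18a and Mrps18c under each scaling, each of the last pair being read by 1 probe. Mrps30 read 2023 in osteoclasts and 815.5 in macrophages (0.50), close to the family median.

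In the large subunit, Mrpl12 led. It encodes the flexible stalk protein that receives translation factors, and its human product is also reported to bind the mitochondrial RNA polymerase. It read 3589 in osteoclasts and 696.4 in macrophages, a difference of 1.57 (2.97-fold higher). Its partners were shifted less: Mrpl10, which anchors the stalk, by 0.52 (2411 in osteoclasts and 956.6 in macrophages), and Mrpl11, at its base, by 0.41 (777.1 and 315.0 in the same order of samples).

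Around the exit of the peptide tunnel the genes differed in size. Mrpl47 read 751.8 in osteoclasts and 155.8 in macrophages (1.29), with 0.65 at its other probe detected on both arrays. Mrpl22 differed by 0.43, Mrpl23 by 0.19 and Mrpl24 by -0.23. The intensities of Mrpl24 were 929.4 in osteoclasts and 610.8 in macrophages, and its difference was 0.59 without normalization. Of the central protuberance, the crown of the large subunit, Mrpl18 read 948.1 in osteoclasts and 221.7 in macrophages (1.15) and Mrpl38 2213 in osteoclasts and 602.7 in macrophages (1.06). A second probe of Mrpl18, dim at 11.1 in osteoclasts and 10.8 in macrophages, gave -0.31. Among probes detected on both arrays, this was the only case of a gene's probes lying over 1 log2 unit apart. Mrpl46, Mrpl40, Mrpl27 and Mrpl48 of the same region differed by 0.64, 0.63, 0.08 and 0.00.

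The other large subunit genes at least 2-fold higher were Mrpl51, Mrpl42, Mrpl53 and Mrpl34. Mrpl42 read 3943 in osteoclasts and 928.1 in macrophages (1.31), Mrpl34 2473 in osteoclasts and 615.2 in macrophages (1.17), and Mrpl53 1465 in osteoclasts and 373.2 in macrophages (1.11). Mrpl51 read 115.1 in osteoclasts and only 10.3 in macrophages, close to the detection limit (1.54, and 0.78 at its other probe detected on both arrays). With an offset of 50 it differed by 0.98. Just under 2-fold stood Mrpl44, an RNase III relative that is mutated in human cardiomyopathy, at 0.98 (986.7 in osteoclasts and 263.9 in macrophages).

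The 7 members below 0 were within 1.5-fold, and 3 of them were dim. Mrpl39 read 27.0 in osteoclasts and 26.6 in macrophages (-0.53), Mrps14 9.53 in osteoclasts and 13.5 in macrophages (-0.51), and Mrpl57 42.1 in osteoclasts and 29.8 in macrophages (-0.31). These 3 have the dimmest probes of the detected members by mean signal. Over 100 on both arrays were Mrpl58, a hydrolase built into the ribosome that frees stalled chains, at -0.19 (393.8 in osteoclasts and 235.9 in macrophages), and Mrps15 at -0.16 (226.9 in osteoclasts and 133.5 in macrophages). A second probe of Mrps15 gave 0.49, and the mean of its probes 0.16. Mrpl24, given above, and Mrps9 (-0.05) complete them. All but Mrps14 and Mrpl39 turned above 0 with median scaling and without normalization; Mrpl39 was 0.06 without normalization, and Mrps14 stayed below 0 in all 7 settings.

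Mrpl19, Mrpl32 and Mrpl45 were detected on neither array. Mrpl45, which in human ribosomes faces the inner membrane at the tunnel exit, read 6.73 in osteoclasts and 3.28 in macrophages, Mrpl19 0.108 in osteoclasts and 2.56 in macrophages, and Mrpl32 -2.24 in osteoclasts and -3.98 in macrophages. The brightest probes were those of Mrps24, the counterpart of bacterial S3 at the entry of the messenger (5570 in osteoclasts and 3193 in macrophages, 0.13), Mrpl23 (4675 in osteoclasts and 2521 in macrophages, 0.19) and Mrps33 (4537 in osteoclasts and 2248 in macrophages, 0.29). Brightness depends on the probe and does not rank transcripts. Across the 73 members the difference and the mean signal had a Spearman rho of -0.24, and across 10500 genes detected on both arrays 0.05, a description over genes that share these 2 arrays.

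Probes for the same gene did not always agree, set against the members' median difference of 0.52. Of the 132 probes, 110 were detected on both arrays, 5 on the osteoclast array only, 1 on the macrophage array only and 16 on neither. Among 26 genes with several probes detected on both arrays, the probes lay within 0.5 log2 units of each other in 16, with a median range of 0.32 and a largest of 1.46 (Mrpl18). The 37 such probes that did not stand for their gene had a median of 0.62, 33 of them were above 0 and 9 were at least 2-fold higher. The matching shares over all probes are not given here. Mrpl49, a large subunit gene, read above 2-fold at 3 of its 4 probes (1.03, 1.10 and 1.37) and at 0.82 at the brightest. Averaging all probes of a gene, the undetected ones included, left 11 genes at least 2-fold higher. The share of all genes under this averaging is not given here.

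**Figure D4:**
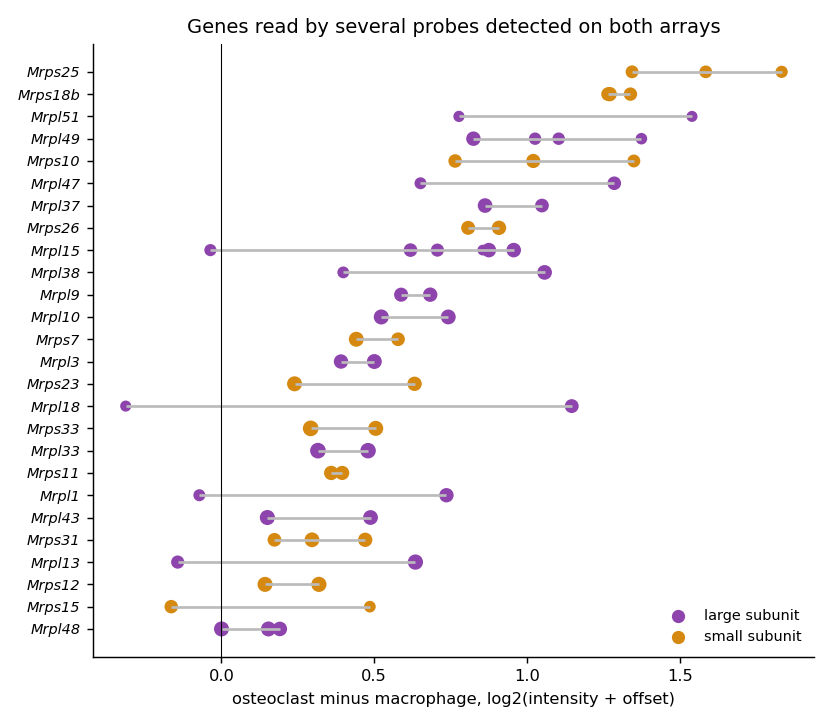
Osteoclast minus macrophage difference (x axis, log2(intensity + 16)) at each probe detected on both arrays, for the 26 members with several such probes (rows, ordered by their median; purple, large subunit; orange, small subunit; larger points are brighter on the macrophage array). In 16 of the 26 genes the probes lie within 0.5 log2 units of each other. The probes at the left end of the long lines of Mrpl18, Mrpl15, Mrpl1 and Mrpl13 are dimmer than the ones at the right end. For Mrpl51, Mrps15, Mrpl49 and Mrps10 the probe at the right end is the dimmer one on the macrophage array.

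Genes of the cytosolic ribosome lay near the level of all genes. Of 55 genes with a symbol of that family, 50 were detected, with a median of -0.10, a range of -0.51 to 0.48 and 0 beyond 1.5-fold in either direction. Of all detected genes, 20.9% were at least 1.5-fold higher and 20.4% at least 1.5-fold lower. Without normalization their median was 0.47, under the 0.60 of all genes, while that of the mitochondrial family was 1.35. The gap between the families could not be tested with 1 array each.

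Other genes of mitochondrial protein synthesis were mixed. Of 4 ribosomal proteins whose symbols fall outside the Mrp pattern, Ptcd3, an RNA-binding protein of the small subunit, was 2.32-fold higher (167.4 in osteoclasts and 27.2 in macrophages). Chchd1 differed by 0.65 (4978 in osteoclasts and 1942 in macrophages) and Dap3, a GTP-binding protein, by 0.63 (3928 in osteoclasts and 1503 in macrophages). Gadd45gip1, dim at 11.2 in osteoclasts and 5.05 in macrophages, differed by 0.04.

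Translation factors were listed together with related genes, among them Lrpprc, Slirp, Oxa1l and Letm1, which are not translation factors in the strict sense. This list had a median of 0.49 over 16 detected genes. In it 5 were at least 2-fold higher (31.2%, against 11.5% of all detected genes) and 0 lower (against 8.2%). Gfm1, the elongation factor that moves the ribosome along, was 3.45-fold higher (444.6 in osteoclasts and 53.9 in macrophages). Tufm, which brings the charged tRNA, was 2.50-fold higher (6358 in osteoclasts and 1535 in macrophages), and its exchange factor Tsfm 2.44-fold (446.7 in osteoclasts and 83.5 in macrophages). Letm1, an inner membrane protein, was 2.57-fold higher and Gfm2, a factor of ribosome recycling, 2.15-fold.

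Mitochondrial tRNA synthetases and the glutamyl-tRNA amidotransferase had a median of 0.66 over 17 detected genes, with 4 at least 2-fold higher (23.5%, against 11.5% of all detected genes) and 0 lower (against 8.2%). Mars2 was 2.97-fold higher (218.7 in osteoclasts and 27.7 in macrophages), Tars2 2.52-fold, Rars2 2.13-fold and Qrsl1 2.08-fold. Genes of mitochondrial DNA and transcription had a median of 0.42 over 18 detected genes, with 3 at least 2-fold higher (16.7%, near the 11.5% of all detected genes) and 0 lower (against 8.2%). Those were Hsd17b10 (2.84-fold) and Trmt10c (2.31-fold), both subunits of the RNase P that trims mitochondrial tRNAs, and Top1mt (2.28-fold), the mitochondrial topoisomerase. Rexo2, a mitochondrial exonuclease, differed by 0.51. Tfam, which packs and transcribes mitochondrial DNA, differed by 0.49 (463.6 in osteoclasts and 167.5 in macrophages) and Polrmt, the RNA polymerase, by 0.43 (1257 in osteoclasts and 518.4 in macrophages).

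Factors that assemble the mitochondrial ribosome had a median of 0.05 over 25 detected genes, near that of all genes, with 4 at least 2-fold higher and 1 lower. Both counts are near the shares of all detected genes, 11.5% and 8.2%. Rcc1l was 2.39-fold higher (86.7 in osteoclasts and 9.68 in macrophages), the GTPase gene Noa1 2.24-fold, the protease gene Afg3l2 2.20-fold, and Mrm3, a ribosomal RNA methyltransferase, 2.00-fold. Rbfa, which helps mature the small subunit, was 2.25-fold lower (2478 in osteoclasts and 3345 in macrophages).

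**Figure D5:**
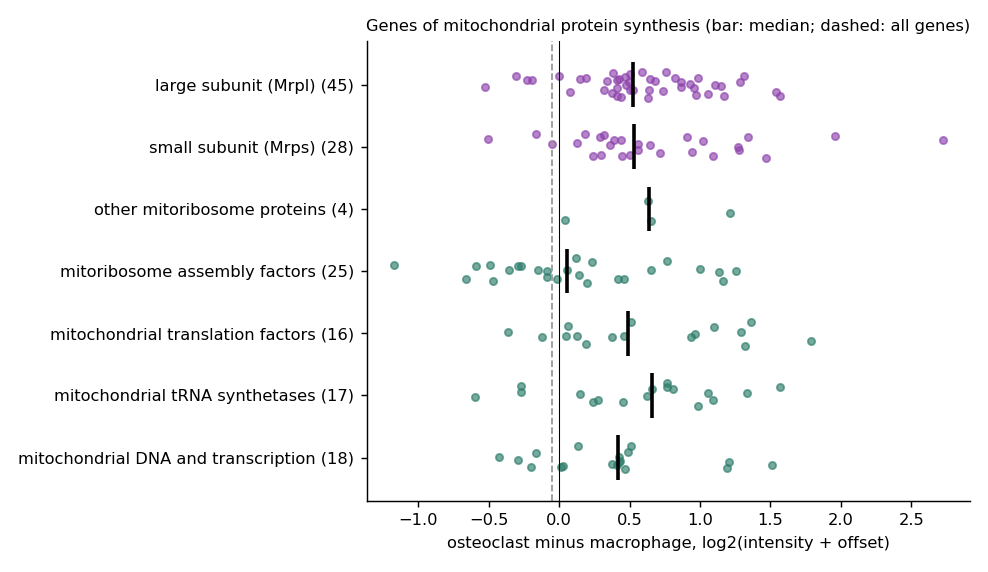
Osteoclast minus macrophage difference (x axis, log2(intensity + 16)) of each detected gene (points, with vertical scatter for legibility) in 7 groups (rows, number of genes in brackets), with group medians as black bars and the median of all detected genes as a dashed line. Both subunits centre near 0.5, and the assembly factors centre near the dashed line with a median of 0.05.

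Many of the genes lie head to head with another gene. In RefSeq, 23 of 67 members (34.3%) have the start of another protein-coding gene on the opposite strand within 1000 bases upstream, against 11.4% of 10331 detected protein-coding genes. Mrpl46 and Mrps11, of different subunits, start 42 bases apart and differed by 0.64 and 0.36. In 16 pairs of a member with a gene outside the family, both detected, the members had a median of 0.56 and their partners 0.39, and 11 members lay above their partner. Mrpl51 (1.54) is paired with Ncapd2, a condensin gene of mitosis (2.96; 321.8 in osteoclasts and 8.62 in macrophages). Mrpl18 (1.15) is paired with the chaperonin gene Tcp1 (1.03), Mrpl47 (1.29) with the respiratory gene Ndufb5 (0.44), and Mrpl43 (0.15) with the mitochondrial helicase gene Twnk (0.42). Of the 16 partners, 13 were above 0. Some pairs went opposite ways: Mrpl50 (0.87) with Zfp189 (-0.74, detected on the macrophage array only), Mrps7 (0.44) with Gga3 (-0.42), and Mrps18c (0.18) with Helq (-0.45). So did the dim Mrpl57 (-0.31) with Ska3 (1.38). Mrpl32, detected on neither array, is paired with the proteasome gene Psma2, bright on both (11329 in osteoclasts and 6753 in macrophages). The members lie on 17 chromosomes, with at most 11 on one.

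Markers of other cells and of division also differed between the arrays. Granulocyte markers were mostly lower in osteoclasts, and the detected muscle, epidermal, fibroblast, adipocyte and cell cycle markers mostly higher. Skeletal muscle markers, of a tissue rich in mitochondria, summed to an intensity of 17839 in osteoclasts and 183.1 in macrophages, with 13 of 14 at least 2-fold higher and 7 not detected on the macrophage array. Epidermal markers summed to 22758 in osteoclasts and 88.9 in macrophages (9 of 9 detected genes at least 2-fold higher). Fibroblast markers summed to 2251 and 30.3 (6 of 8) and adipocyte markers to 400.1 and 17.0 (3 of 5), in the same order of samples. On the macrophage array, 8 of 10 epidermal, 7 of 10 fibroblast and 6 of 7 adipocyte genes were not detected. A gene counted as detected through the osteoclast array alone tends to read higher there, so these counts are partly set by the detection rule. Of all detected genes, 11.5% were at least 2-fold higher and 8.2% at least 2-fold lower. Cell cycle genes, expressed in dividing cells, summed to 20613 in osteoclasts and 1653 in macrophages (16 of 17). Granulocyte markers summed to 997.8 in osteoclasts and 53108 in macrophages (12 of 13 at least 2-fold lower). The cell types carried their own markers, with 9 of 10 detected osteoclast markers at least 2-fold higher in osteoclasts and 9 of 10 macrophage markers at least 2-fold lower there. The part of other cells and of division in the shift of the ribosomal genes was not tested, and in such bulk samples more cells of a type cannot be told apart from more RNA per cell.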

How the data were processed

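The authors deposited probe intensity values, linear and partly below 0 (36.9% of probes for osteoclasts, 38.4% for macrophages), so background had been subtracted. The software is not given in the labels. A processed table that the authors deposited holds log2 values made by an unstated method and served as an alternative.

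With no detection p-values to use, background came from each array's mode and the spread of values under it, in place of the planned neqc. limma 3.58.1 (R 4.3.3) then applied normexp, an offset of 16 and quantile normalization. Detection meant exceeding a one-sided p of 0.01 of that background (22993 probes for osteoclasts, 21691 for macrophages). Signal over background limits precision, and with 1 array per group no p-value is given. The steps were tested on simulated data.

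The platform annotation named the probes (34885 with 1 gene, 18 with several, 10378 unlisted), and all 76 members matched RefSeq by Entrez identifier. The brightest probe by mean over both arrays stood for its gene. Named members were the 6 with the largest difference each way, those 2-fold apart, undetected ones, and the 3 brightest and 3 dimmest. Also named were members with probes detected on both arrays over 1 log2 unit apart, and preset ones. Of each list, up to 4 genes with the largest differences and preset genes were named. Any others were chosen after their values were seen. Members and lists were chosen with earlier results of these data known. Alternatives changed normalization, offset, background, detection, probe choice, subunit assignment and source table. Tables were made with pandas 2.3.3 on Python 3.11.15.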

Additional observations from a re-analysis of the deposited data

How the results depend on the processing

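Median scaling and leaving out normalization between arrays moved sizes and counts. The median differences of all, large subunit and small subunit members were 1.05, 1.07 and 1.02 with median scaling and 1.35, 1.37 and 1.32 without normalization, where 38 and 60 members were at least 2-fold higher and 62 and 70 at least 1.5-fold higher. In the same order, the medians of all genes were 0.29 and 0.60, and 19.2% and 29.5% of all genes were at least 2-fold higher. The shares of all genes at 1.5-fold under these settings are not given here. Without background correction 1 member, Mrps14, was at least 2-fold lower and 2, Mrps14 and Mrpl39, at least 1.5-fold lower. Under the other alternatives run (cyclic loess, an offset of 50, the authors' table, detection on both arrays, at p of 0.001 or with no filter, the mean of probes) the median of all members lay between 0.47 and 0.57 and between 11 and 19 members were at least 2-fold higher. Without background correction the share of all genes at least 2-fold higher was 21.6%, against 26.0% of members. Assigning subunits by place in the structure gave medians of 0.52 for the large and 0.50 for the small subunit. At least 2-fold higher in each of the 7 scalings were 13 members, and the matching share of all genes is not given here. Mrpl51, Mrps5 and Mrps10 were below 2-fold with an offset of 50. With the mean of probes Mrpl18, Mrpl38, Mrpl47, Mrps5, Mrps10 and Mrps22 were under 2-fold. No paired analysis was possible because each group has 1 array. Genes near the detection limit (Mrps14, Mrpl39, Mrpl57, and Mrpl51 in macrophages) have the least certain differences.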
